A study of Mus musculus with 15 samples.

Results

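The loci of 7 activity-induced immediate early genes of the mouse, Fos, Fosb, Egr1, Npas4, Nr4a1, Arc and Bdnf, were examined for cocaine-associated differences in 2 chromatin marks. A region belonged to a locus if it shared at least 1 bp with a fixed window of the mm9 genome build around the gene. These windows were chr12:86770000-86870000 for Fos, chr7:19850000-19940000 for Fosb and chr18:34970000-35070000 for Egr1. They were chr19:4940000-5040000 for Npas4, chr15:101040000-101150000 for Nr4a1, chr15:74450000-74550000 for Arc and chr2:109470000-109620000 for Bdnf. The windows, 750 kb in all, held 91 of the 49712 regions listed for histone H3 acetylated at lysine 27 (H3K27ac) and 4 of the 11748 regions listed for 5-hydroxymethylcytosine (5hmC). They also held 5 of 10575 intervals of a deposited list of cocaine-specific 5hmC enhancers and 5 of 10555 of the saline-specific list. The tissue was nucleus accumbens, the ventral part of the striatum, from C57BL/6 mice. One group had received 7 daily intraperitoneal cocaine injections at 20 mg/kg and the control group saline. For each mark 3 cocaine and 3 saline libraries were compared. The H3K27ac libraries are called C7, C9 and C11 (cocaine) and S8, S10 and S12 (saline), as in the labels. The interval between the last injection and tissue collection, the age of the mice and whether each library came from separate animals are not given in the labels. The p-values thus rest on variation among these libraries, and that variation may be technical. For H3K27ac the variance of nearly all regions came from a trend over the whole table, not from that region's own libraries.

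Immediate early genes are transcribed within minutes of synaptic activity without new protein synthesis, and cocaine is known to induce several of them in the striatum. Calcium and cAMP signals reach them largely through the transcription factors CREB and SRF, which bind promoters and nearby enhancers that are already accessible. H3K27ac is laid down by the acetyltransferases CBP and p300 and marks active promoters and enhancers. 5hmC is made from 5-methylcytosine by the Tet enzymes and is abundant in neurons, where it is often found in gene bodies and at enhancers.

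The promoter sequences of the 4 genes whose windows held a region with a called H3K27ac change are shown, with a motif that CREB is known to bind. Binding of CREB to them was not measured here. Each run is the 250 bases before the gene's start in RefSeq (GRCm38.p6), 5′ to 3′ on the gene's strand. Capitals mark TGACG or its reverse complement CGTCA, the core of the CREB-binding cAMP response element. The positions are chr12:85473640-85473889 (plus strand) for Fos, chr7:19310046-19310295 (minus) for Fosb, chr19:4989972-4990221 (minus) for Npas4 and chr15:101266596-101266845 (plus) for Nr4a1.
Fos: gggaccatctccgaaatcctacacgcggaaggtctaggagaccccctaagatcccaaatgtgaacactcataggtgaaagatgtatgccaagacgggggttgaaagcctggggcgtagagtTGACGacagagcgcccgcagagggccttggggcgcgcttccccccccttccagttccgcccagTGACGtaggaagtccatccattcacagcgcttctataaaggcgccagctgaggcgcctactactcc
Fosb: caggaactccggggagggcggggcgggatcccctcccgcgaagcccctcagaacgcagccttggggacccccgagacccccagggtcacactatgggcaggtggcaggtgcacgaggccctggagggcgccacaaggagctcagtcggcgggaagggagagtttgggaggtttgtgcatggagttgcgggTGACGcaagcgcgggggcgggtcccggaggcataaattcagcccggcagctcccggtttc
Npas4: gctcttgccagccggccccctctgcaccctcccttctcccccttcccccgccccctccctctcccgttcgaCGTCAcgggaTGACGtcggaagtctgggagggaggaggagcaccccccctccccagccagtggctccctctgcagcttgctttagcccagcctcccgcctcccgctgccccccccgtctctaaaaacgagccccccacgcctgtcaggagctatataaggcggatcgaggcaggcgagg
Nr4a1: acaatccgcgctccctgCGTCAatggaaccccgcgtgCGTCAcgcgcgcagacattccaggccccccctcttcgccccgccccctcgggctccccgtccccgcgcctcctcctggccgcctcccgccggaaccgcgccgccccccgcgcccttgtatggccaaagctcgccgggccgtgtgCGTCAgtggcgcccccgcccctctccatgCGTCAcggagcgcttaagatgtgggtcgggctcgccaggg

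The Fos promoter held 2 copies of the core motif, first bases at -129 and -66 from the gene's start, and the Fosb promoter held 1, at -60. Npas4 had 2 copies, at -179 and -169, and Nr4a1 had 4, at -233, -213, -69 and -40. Of the 32851 RefSeq stretches of the same length, 17.8% held at least 1 copy on either strand, 3.90% at least 2 and 0.137% at least 4. The complete palindrome TGACGTCA, found in 1.55% of them, was in none of the 4 printed stretches. Of 7 listed Bdnf promoters, 1 held the core motif. In all, 5 of the 7 genes were matched in the table. Arc and Egr1, whose windows held no called region, were not. Genes with and without a called region therefore cannot be compared for the motif. These sequences belong to a later build than the mm9 positions of the regions, and no mm9 annotation was used, so no region below is assigned to a promoter, exon, intron or enhancer. Neighbouring genes can also own regions of a window. In the RefSeq order the genes to either side are Tmed10 and Jdp2 for Fos, Rtn2 and Ercc1 for Fosb, Reep2 and Etf1 for Egr1, and Mrpl11 and Slc29a2 for Npas4. They are Grasp and Atg101 for Nr4a1, Mroh4 and Jrk for Arc, and Kif18a and Lin7c for Bdnf.

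Listed H3K27ac regions were found around 6 of the 7 genes. Nr4a1 had 24, Egr1 20, Npas4 14, Arc 13, Fosb 12 and Fos 8, whereas Bdnf had none. The 91 regions merged into 57 separate sites and covered 113.4 kb. Acetylation was highest around Egr1 and Arc, with medians of 587 and 572 normalised counts per kb over the regions of the window. Npas4 followed with 533, Fosb with 416, Nr4a1 with 375 and Fos with 368. The median was 480 over the 91 regions and 373 over all 49712, and 57 of the 91 lay above the latter. The authors' deposited ratios of the group means to input libraries had a median of 4.92 around these genes and 4.02 in the whole table. Every H3K27ac library counted about 200 reads or more in each of the 91 regions, and the most was about 1885.

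**Figure D1:**
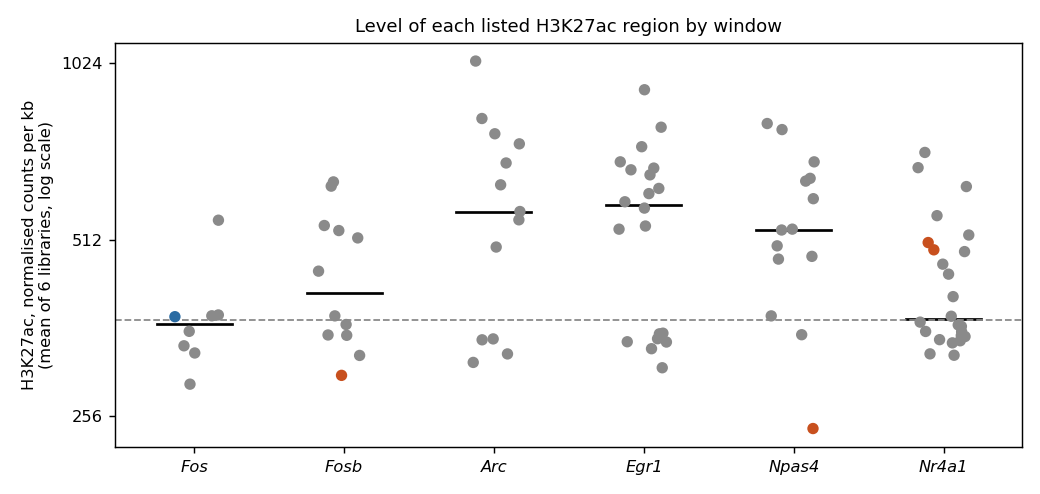
H3K27ac level of each of the 91 listed regions by gene window, in normalised counts per kb (mean of 6 libraries, log scale). Black lines are window medians, the dashed line is the median of all listed regions (373), and orange and blue points are regions called higher and lower after cocaine. The Egr1 and Arc medians lie well above the dashed line, and the region called higher at Npas4 is the lowest point, at 244.

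Cocaine and saline differed little in H3K27ac at most of these regions. The log2 fold change from limma, a linear model fitted to log2(normalised count + 1) over the whole table, had a median of 0.0029 over the 91 regions and -0.018 over all regions. It lay within 0.1 of 0 in 83 of the 91 (91.2%), against 76.7% of all regions, and 46 were higher and 45 lower after cocaine. With an adjusted p below 0.05 by limma (Benjamini-Hochberg over all regions), 5 of the 91 regions were called (5.49%), against a background of 13.0% of all regions. Of these, 4 were higher after cocaine (4.40%, background 3.42%) and 1 was lower (1.10%, background 9.62%). Unadjusted p values below 0.05 were found in 14 of the 91 (15.4%) and in 27.3% of all regions. The ranges of the 2 groups were separate in 13 of the 91 (14.3%, background 29.1%). With each region's own variance instead of the trend, none of the 91 was called, and 2 of all 49712 were. In the 5 called regions the SE of the log2 fold change from the region's own libraries exceeded the limma SE given below. It was 0.0689 at Fos, 0.0603 at Fosb, 0.0787 at Npas4, and 0.0544 and 0.0463 at Nr4a1. In the authors' deposited table, 57 of the 91 (62.6%) had an adjusted p below 0.05, near the background of 65.9%. Every listed region held a window that had passed the authors' caller on this same contrast, so these calls are no independent test. The list is also not a scan of the genome: an unlisted stretch may be acetylated.

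**Figure D2:**
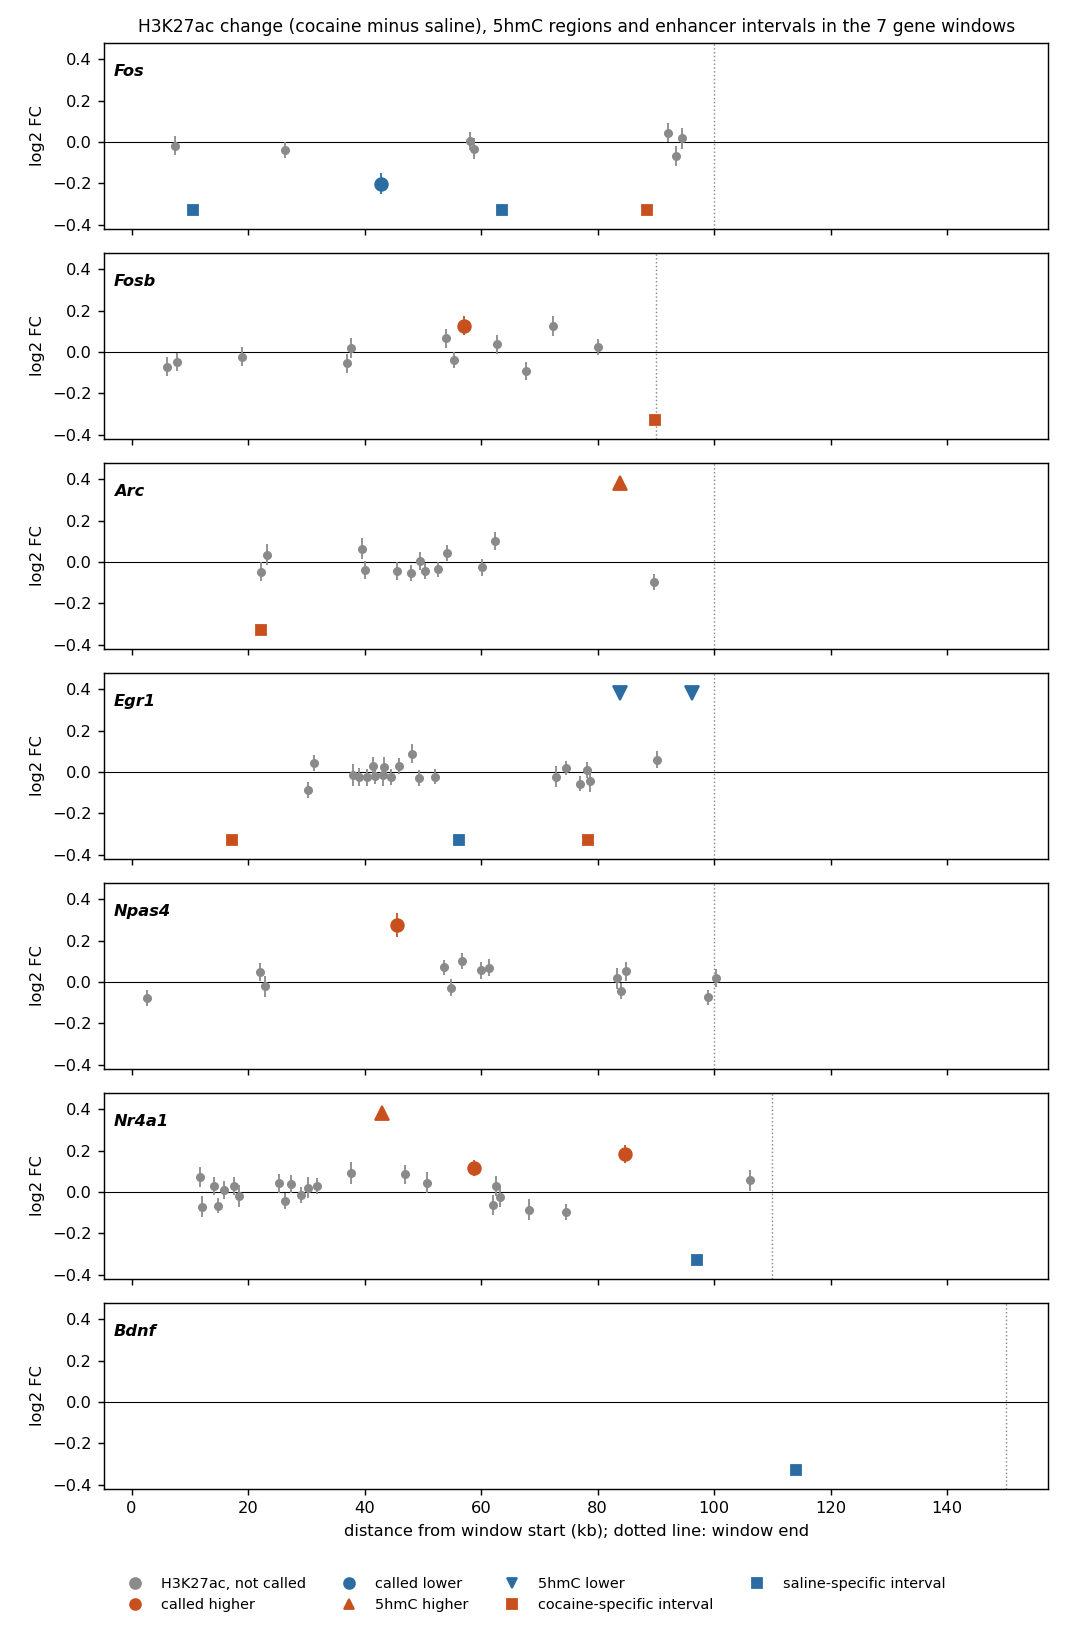
H3K27ac change along the 7 gene windows. Circles are listed regions at their midpoint in kb from the window start, with the limma log2 fold change (cocaine minus saline) and its SE; triangles and squares, at arbitrary heights, mark 5hmC regions and enhancer intervals. Most circles lie within 0.1 of 0, with the 5 called regions in colour and no circle in the Bdnf window.

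Fos encodes the AP-1 subunit c-Fos. The 1 called decrease lay in its window, at chr12:86812301-86813300. The cocaine libraries C7, C9 and C11 held 347, 377 and 332 normalised counts there, and the saline libraries S8, S10 and S12 held 426, 405 and 385. All cocaine values were below all saline values. The limma log2 fold change was -0.20 ± 0.050 (SE, adjusted p = 0.00142), on means of 352 ± 23.2 and 405 ± 20.7 (SD, n = 3 each). Without C11 limma no longer called it (-0.16, adjusted p = 0.0616). The most strongly acetylated Fos region, chr12:86795001-86797600, held 1423, 1418 and 1413 counts after cocaine and 1449, 1464 and 1457 after saline. These groups did not overlap either, but the difference was about as large as its limma SE and was not called (-0.04 ± 0.0369, adjusted p = 0.493). The other 6 Fos regions were not called.

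Fosb encodes FosB and its truncated form ΔFosB, which accumulates in the striatum with repeated cocaine. The region chr7:19906201-19907800 was called higher after cocaine. It held 527, 510 and 470 counts in C7, C9 and C11, and 440, 461 and 479 in S8, S10 and S12. The lowest cocaine library fell below the highest saline library, so the groups overlapped. The limma log2 fold change was 0.13 ± 0.0459 (SE, adjusted p = 0.0468). The call was lost without C7 (0.09, adjusted p = 0.322), without C9 (0.11, adjusted p = 0.143), without S8 (0.10, adjusted p = 0.229) or without S10 (0.13, adjusted p = 0.0924). It partly overlapped the most strongly acetylated Fosb region, chr7:19904201-19906500, whose values were 1432, 1494 and 1446 after cocaine and 1559, 1467 and 1468 after saline. That neighbour overlapped between groups and was not called (-0.04 ± 0.0367, adjusted p = 0.490). Of the 12 Fosb regions 6 had a positive and 6 a negative log2 fold change, between -0.09 and 0.13.

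Egr1 encodes a zinc finger transcription factor of synaptic plasticity. None of the 20 regions of its window was called, and all of their limma log2 fold changes lay between -0.09 and 0.09. Its strongest region, chr18:35021101-35023000, stood at the 99.5th percentile of all regions in counts per kb (922). It held 1754, 1703 and 1757 counts in C7, C9 and C11 and 1851, 1728 and 1720 in S8, S10 and S12. The groups overlapped (-0.02 ± 0.0355, adjusted p = 0.648 by limma). The largest change was at chr18:35017201-35019100, with 586, 613 and 622 counts after cocaine and 571, 577 and 564 after saline. All cocaine values there exceeded all saline values, but limma did not call it (0.09 ± 0.0440, adjusted p = 0.168).

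Npas4 encodes a neuron-specific transcription factor that depends on calcium influx. The largest difference of the 91 regions was in its window, at chr19:4985101-4986100. Cocaine libraries C7, C9 and C11 held 272, 278 and 252 counts and saline libraries S8, S10 and S12 held 239, 204 and 220. All cocaine values were above all saline values. The means were 267 ± 13.3 and 221 ± 17.8 (SD, n = 3 each). By limma the log2 fold change was 0.28 ± 0.0592 (SE, adjusted p = 0.000145), and the region was called in each of the 6 fits that left out 1 library. It was also the least acetylated of the 91, with 244 counts per kb, the 5.15th percentile of all regions. Its absolute log2 fold change stood at the 98.9th percentile. The Npas4 region with the most counts, chr19:5037801-5040100, which runs past the window end, had 1744, 1790 and 1766 counts after cocaine and 1949, 1823 and 1813 after saline. There all cocaine values were below all saline values, without a call (-0.07 ± 0.0353, adjusted p = 0.146 by limma). In 5 of the 14 Npas4 regions the groups did not overlap, a share near the 29.1% of all regions.

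Nr4a1 encodes the orphan nuclear receptor Nur77. Of the 24 regions of its window, 2 were called, both higher after cocaine. At chr15:101124201-101125300 the libraries C7, C9 and C11 held 597, 568 and 562 counts and S8, S10 and S12 held 486, 502 and 532. The groups did not overlap (0.18 ± 0.0448, adjusted p = 0.00115 by limma), and the call held in each of the 6 fits that left out 1 library. At chr15:101097701-101099900 the values were 1165, 1209 and 1101 after cocaine and 1120, 1022 and 1068 after saline. C11 fell below S8, so the groups overlapped (0.11 ± 0.0387, adjusted p = 0.0307). This call was lost without C7 (adjusted p = 0.142), without C9 (adjusted p = 0.229) or without S10 (adjusted p = 0.253). The most strongly acetylated Nr4a1 region, chr15:101053801-101056000, held 1550, 1601 and 1497 counts after cocaine and 1724, 1582 and 1565 after saline. It was not called (-0.07 ± 0.0362, adjusted p = 0.217).

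**Figure D3:**
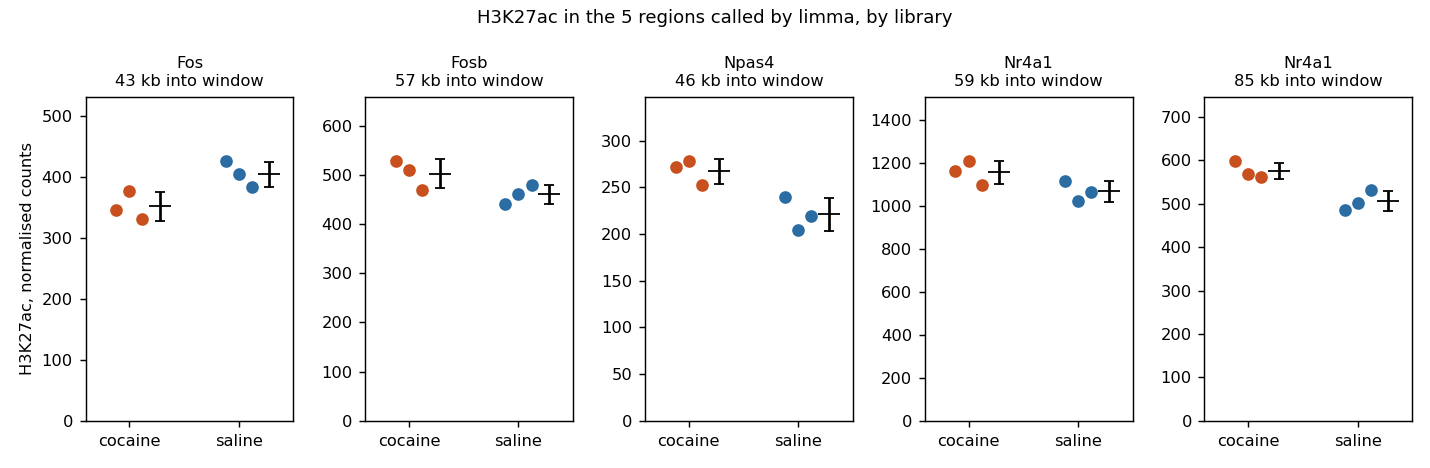
Normalised H3K27ac counts per library in the 5 called regions, which lie at the stated distance into their gene's window. Points from left to right are C7, C9 and C11 (orange) and S8, S10 and S12 (blue), bars show mean and SD of 3 libraries, and each axis starts at 0. Groups are separate in the Fos and Npas4 panels and in the Nr4a1 panel at 85 kb, and they overlap in the other 2.

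Arc encodes a synaptic protein whose mRNA is carried to active dendrites. No call was made among its 13 regions. The window held the highest level of all 91 regions, at chr15:74501801-74503300, with 1032 counts per kb, the 99.8th percentile of the table. C7, C9 and C11 held 1488, 1572 and 1524 counts there and S8, S10 and S12 held 1651, 1498 and 1554. The groups overlapped (-0.04 ± 0.0364, adjusted p = 0.514 by limma). The largest Arc change, at chr15:74511501-74513300, had 574, 588 and 607 counts after cocaine and 563, 562 and 523 after saline. These groups did not overlap, and limma did not call the region (0.10 ± 0.0443, adjusted p = 0.105), although it did after upper quartile scaling (0.12, adjusted p = 0.0356).

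Bdnf encodes the neurotrophin BDNF, much of which reaches the striatum from cortical axons. Its window of 150 kb, the widest, overlapped no listed H3K27ac region and no listed 5hmC region. The nearest H3K27ac regions ended 351 kb before the window and began 110 kb after it. They thus stood 611 kb apart. Of the 49691 pairs of neighbouring listed regions, overlapping pairs included, 727 (1.46%) had a gap at least as wide. Gaps of at least 150 kb, the width of the window, numbered 3002 (6.04% of these pairs). Both shares count gaps by number, although a wide gap takes up more of the genome than a narrow one. How often a window of this width would hold no listed region was not tested, so the empty Bdnf window is not read as unusual. The nearest 5hmC region was 348 kb away. The single feature in the window was a saline-specific enhancer interval of 2000 bp, chr2:109583001-109585000.

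Summed over its listed regions, overlapping ones included, the cocaine and saline libraries overlapped in every window with H3K27ac regions. The regions had been listed in both directions, and all 33 overlapping pairs joined a higher with a lower region, so opposite differences cancel in a sum and it does not measure the acetylation of the whole window. The Fos sum was 4608, 4519 and 4439 counts in C7, C9 and C11 and 4612, 4678 and 4588 in S8, S10 and S12. C9 and C11 lay below every saline sum, and C7 lay between S12 and S8. Its log2 ratio of the group means, cocaine over saline, was -0.033 (exact permutation test over libraries, two-sided, p = 0.2). The ratios of the other windows were -0.0025 for Fosb, -0.019 for Arc, -0.0070 for Egr1, 0.014 for Npas4 and 0.0064 for Nr4a1. Their exact permutation p values were 1.0, 0.7, 0.8, 0.6 and 0.7, and the smallest that 3 against 3 libraries allow is 0.1. Upper quartile scaling raised all 6 ratios alike, by 0.0218 to 0.0222, and gave Fosb, Arc and Egr1 a positive ratio, so no direction is read from them. Together the 91 regions held 0.207% to 0.214% of a library's counts in the table.

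**Figure D4:**
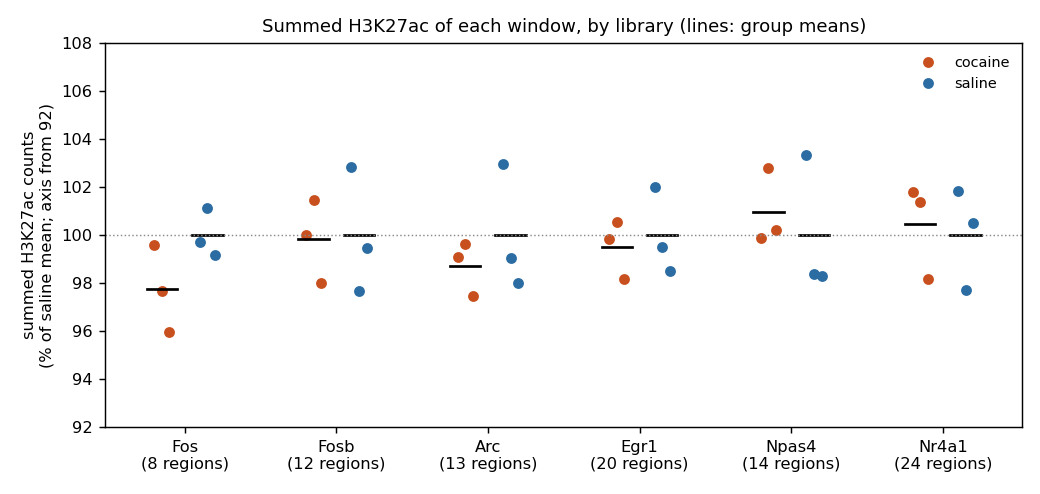
Summed normalised H3K27ac counts of each gene window per library, as a percentage of the saline mean of that window (the axis does not start at 0). Points from left to right are C7, C9 and C11 (orange) and S8, S10 and S12 (blue), and black lines are group means. Cocaine and saline libraries overlap in all 6 windows, and the Fos cocaine mean differs from the saline mean by -2.26%.

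One library on each side stood at the edge of its group. C11 was the lowest cocaine library in 56 of the 91 regions (61.5%), against 31.1% of all regions. S8 was the highest saline library in 54 (59.3%), against 48.1% of all regions. Among the 5 called regions C11 was the lowest cocaine library in all 5. S8 was the highest saline library in 3, at Fos, at Npas4 and at the Nr4a1 region overlapping between groups. Without S8 limma still called the Fos region (-0.17, adjusted p = 0.0437), and without C11 it did not.

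The deposited 5hmC table listed 4 regions around 3 of the genes, with higher cocaine means near Arc and Nr4a1 and lower ones near Egr1. These differences are a description: every listed region had been selected for one in the same libraries, and none of the 4 had a deposited adjusted p below 0.1. The table names no library and calls its groups treatment and control. Treatment was taken as cocaine and control as saline from the title and labels of the study, and every direction given for 5hmC rests on that reading. Values are in the order of the table. At chr15:74533681-74533980, near Arc, the cocaine libraries held 9.61, 13.6 and 12.6 normalised counts and the saline libraries 1.79, 4.12 and 0. These are 35 against 6 reads, and the log2 fold change in the authors' deposited table was 2.60 (adjusted p = 0.132). At chr15:101082921-101083120, near Nr4a1, cocaine held 4.80, 4.94 and 8.09 and saline 0.90, 1.03 and 1.97. That is 18 against 4 reads, with a deposited log2 fold change of 2.19 (adjusted p = 0.141 in the authors' deposited table).

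Near Egr1 both 5hmC regions had lower means in the cocaine group. At chr18:35053701-35053900 cocaine held 1.92, 1.23 and 1.80 counts and saline 8.96, 7.21 and 7.90, or 5 against 25 reads. Its log2 fold change in the authors' deposited table was -2.28 (adjusted p = 0.140). At chr18:35066101-35066300 cocaine held 0.96, 0 and 1.80 and saline 5.38, 8.24 and 4.93, or 3 against 19 reads, with a log2 fold change of -2.75 (adjusted p = 0.141 in the authors' deposited table). The authors' deposited ratios to a background library were 1.4 in cocaine and 0.23 in saline near Arc, and 4.22 and 0.91 near Nr4a1. They were 0.67 and 4.3 at chr18:35066101-35066300, and not finite in either group at the other Egr1 region. In all 4 regions the groups did not overlap, as in 99.9% of the listed 5hmC regions, which had all been chosen by the caller. None of the 4 regions overlapped an H3K27ac region or an enhancer interval, and the share over all listed 5hmC regions is not given here. The nearest H3K27ac region was 5.02 kb from the Arc region, 3.08 kb from the Nr4a1 region, and 4.50 and 4.90 kb from the Egr1 regions. None of these neighbours was called by limma (adjusted p = 0.0896, 0.202, 0.550 and 0.357).

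**Figure D5:**
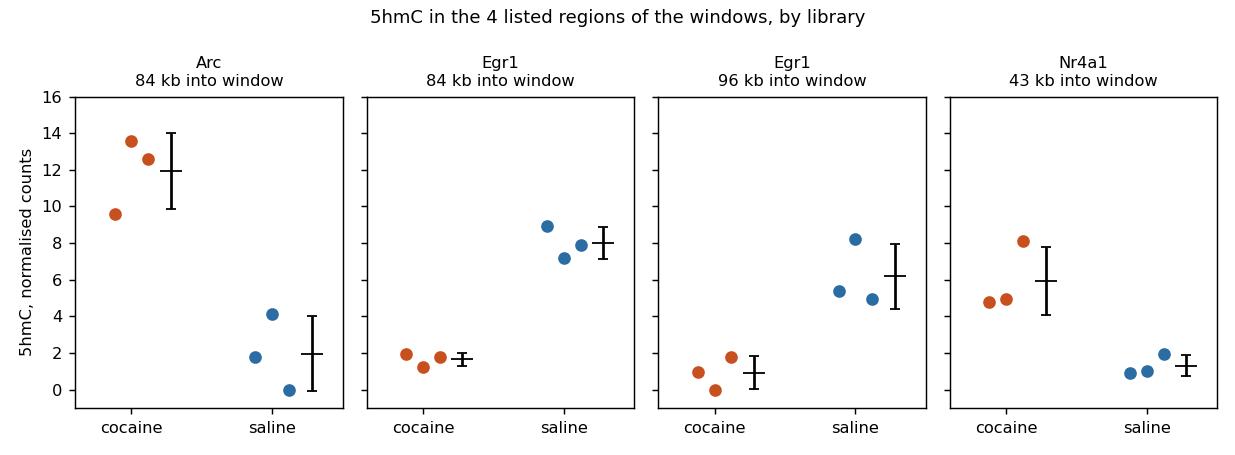
Normalised 5hmC counts per library in the 4 listed regions, at the stated distance into the gene's window. Points are the 3 cocaine (orange) and 3 saline (blue) libraries in the order of the table, and bars show mean and SD. The saline libraries reach at most 4.12 near Arc and 1.97 near Nr4a1, and the cocaine libraries at most 1.92 near Egr1.

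The enhancer intervals carry no values, and the sources used here do not say how they were chosen. Cocaine-specific intervals lay at chr12:86858401-86858600 (Fos), chr7:19939601-19940000 (Fosb) and chr15:74472201-74472400 (Arc). The Egr1 window held 2, a long one of 3000 bp at chr18:34985801-34988800 and one at chr18:35048201-35048600. Saline-specific intervals lay at chr12:86780401-86780600 and chr12:86833401-86833600 (Fos), chr18:35026001-35026400 (Egr1), chr15:101137001-101137200 (Nr4a1) and in the Bdnf window. No interval of either list lay in the Npas4 window. Of the 10 intervals, 2 overlapped a listed H3K27ac region, the cocaine-specific one near Arc and the shorter cocaine-specific one near Egr1. None of the H3K27ac regions under them was called by limma (adjusted p = 0.491 at Arc, 0.816 and 0.550 at Egr1). The share over all intervals of the 2 lists is not given here, so 2 of 10 is not read as few or many.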

How the data were processed

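Accumbens H3K27ac (3 cocaine, 3 saline libraries, 1 input per treatment) and 5hmC (3 against 3) were analysed. One library, labelled both cerebellum input and nucleus accumbens, was not used. The submitters' processing notes name Bowtie 0.12.9 and the mm9 build. The H3K27ac regions come from diffReps 1.54 (windows of 1000 bp moved by 100 bp, p cutoff 0.0001), per the file headers. The sources used here do not name the 5hmC caller. The deposited signal of a region is each group's mean of normalised read counts, beside which the per-library values stand. The deposited ratio divides that mean by a background library. The deposited log2 fold change and the p-value of each region are the authors'.

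The members and lists were chosen with earlier results of these data known. The named regions are, by rule, every called region, the strongest and the most changed H3K27ac region of each window, every 5hmC region and every interval. The per-library 5hmC counts were whole multiples of a constant per library within 0.1 read, with a median of 5 to 7 reads per region. H3K27ac reads are the normalised counts times the authors' rounded constant of each library and are approximate. Their median was 473 to 533 per region. H3K27ac was tested with limma 3.58.1 in R 4.3.3 after a log2 transform with a pseudocount of 1, using trended priors, robust moderation and Benjamini-Hochberg adjustment over all 49712 regions. Only 850 regions had a finite prior, so nearly all took their variance from the trend. In the 5hmC table treatment was taken as cocaine. 5hmC was not tested, since its regions had been selected on these libraries. Groups share no replicate numbers. Computations and exact permutation tests used Python 3.11.15, pandas 2.3.3 and scipy 1.17.1. Other settings tried were pseudocounts, scalings, variance moderation, thresholds and leaving out each library. Sums and calls over regions that do not overlap were added after seeing the data.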

Additional observations from a re-analysis of the deposited data

How the results depend on the processing

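The number of called H3K27ac regions was 5. It rose to 8 with cyclic loess (7 higher) and 9 with upper quartile scaling (8 higher), and fell to 3 at an adjusted p below 0.01. It fell to 0 with each region's own variance, an ordinary t-test without moderation. In that t-test 2 of all 49712 regions passed, and the 5 regions called in the main fit had adjusted p of 0.281 to 0.332. Leaving out 1 library gave 3 (without C7 or without C9) to 8 (without S12). The share of all regions called was 14.98% with loess, 15.1% with upper quartile scaling, 6.15% without C7, 11.5% without C9 and 13.9% without S12, against 13.0%. The number called was 4 among the 63 regions that do not overlap each other. No share of all regions is given for the threshold of 0.01 or for regions that do not overlap. Neither count is therefore read as few or many. Over the whole table the share of calls that were higher after cocaine was 26.2%, against 36.7% with loess and 50.6% with upper quartile scaling, which moved the median of all regions from -0.018 to 0.0025 and 0.0034. The median of the 91 regions, 0.0029, ranged from -0.0081 to 0.013 without 1 library and thus changed sign. It was 0.014 with loess and 0.025 with upper quartile scaling, with 56.0% and 58.2% of the 91 higher after cocaine instead of 50.5%. The Fos window sum, -0.033, became -0.011 with upper quartile scaling, which moved all 6 sums by nearly the same amount. Fosb moved to 0.020, Arc to 0.0037, Egr1 to 0.015, Npas4 to 0.036 and Nr4a1 to 0.028. With only regions wholly inside a window the Npas4 ratio was 0.031 instead of 0.014, and the other ratios did not change. The 5hmC count of 4 became 1 where a group mean of 10 or more was required and 0 at a deposited adjusted p below 0.1, while the 10 intervals stayed when they had to lie wholly inside a window. The causes were not tested. The count test edgeR was not run, since the deposited cells pack 3 values and were not accepted as counts. No paired analysis was possible because the groups share no replicate numbers. At 5 to 7 reads per 5hmC region and library, counting error alone is large, and regions that did not pass the callers were not analysed here.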

Other observations

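Many of these H3K27ac regions lay across a neighbour of opposite direction. Of the 91 regions, 55 (60.4%) shared bases with another listed region, against 31.0% of all listed regions. All 55 had such a neighbour whose change had the other sign, as did 30.6% of all listed regions. The difference in share is thus one of overlap, not of sign. Around Egr1 this held for 16 of 20 regions and around Fos for 2 of 8. The 33 overlapping pairs in the 6 windows all paired a higher with a lower region, as did 8481 of the 8939 overlapping pairs in the table.

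Of the 57 regions with an adjusted p below 0.05 in the authors' deposited table, 37 (64.9%) had a deposited log2 fold change of at most 0.05 in size, against 46.7% of such regions in the whole table. The deposited adjusted p was 1.0 for the called Fosb region and 2.12e-09 for the called Fos and Npas4 regions.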
